A study of Saccharomyces cerevisiae with 8 samples.

Results

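The genes described here are 48 nucleolar ribosome biogenesis genes of *Saccharomyces cerevisiae*, chosen by their open reading frame (ORF) identifiers for a role in the processing of ribosomal RNA and the assembly of ribosomal subunits. They are 48 of the 6152 ORFs on the arrays, and the rule that chose them uses no measured value. All 48 were found on the arrays and all 48 matched the yeast reference annotation by locus tag. Values in every condition were available for 47 of them, and UTP7 (YER082C) had no value in Temohaya-MI26 late without ethanol. None of the 48 overlaps another gene of that reference annotation, which matched 5653 of the 6152 ORFs, so overlaps with ORFs outside it were not checked.

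The nucleolus is where ribosomal DNA is transcribed by RNA polymerase I and where the long precursor RNA is modified, cut and folded with ribosomal proteins. Small nucleolar ribonucleoproteins (snoRNPs) guide the modifications, box C/D particles for methylation and box H/ACA particles for the conversion of uridine to pseudouridine. The small subunit processome assembles around the beginning of the precursor, separate factors build the large subunit, and RNA helicases remodel both. In budding yeast the genes for these proteins belong to the ribosome biogenesis regulon, whose transcripts are known to follow growth rate and to be lowered by many stresses.

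RNA was measured in 8 conditions. With 10% (v/v) ethanol in rich glucose medium (GPY), CECT10094 was sampled late, after 28 h, and early, after 1 h, and Temohaya-MI26 was sampled late, after 40 h, and early, after 1 h. In GPY with 0% ethanol, both strains were sampled late after 10 h and early after 1 h. CECT10094 is a flor wine yeast chosen in the study for its ethanol tolerance, and Temohaya-MI26 is an agave fermentation isolate chosen as the sensitive strain. The sample labels name the first strain PE35M, which the study's methods treat as an earlier misidentification of CECT10094. The labels place the late samples in exponential phase and the series description places them after it. Ethanol and hours of culture therefore differ together in the late comparison and cannot be told apart there.

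Each value is the log2 ratio of a sample's signal (Cy5) to that of the pooled RNA of all samples (Cy3), and 3 biological replicate slides per condition had been combined by their median, so that 1 value per gene and condition remains. A level below means this log2 ratio, which says how a gene stood relative to its own mean in the pool and does not rank one gene against another. An ethanol difference is the level at 10% minus the level at 0% ethanol with strain and stage held the same, so that the pool drops out. The columns held 5612 to 6115 ORFs. Across ORFs the correlation between columns was lowest, -0.356, for the early ethanol sample of Temohaya-MI26 and the early sample of CECT10094 at 0% ethanol, and highest, 0.823, for the late samples of both strains without ethanol. The dyes were stated in the methods, so the direction of the ratios was kept.

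The members stood highest in the early samples without ethanol. Late, their median level was -0.29 with ethanol and -0.20 without it in CECT10094, beside -0.16 and 0.32 for all genes. In Temohaya-MI26 it was -0.19 late with ethanol and -0.54 late without it, beside 0.04 and 0.23 for all genes. Early, the members' median was -0.36 with ethanol in CECT10094, where the median of all genes was 0.16, and 0.58 without it, where that of all genes was -0.22. In Temohaya-MI26 the corresponding medians of the members were -0.39 with ethanol and 1.05 without it, beside -0.20 and -0.11 for all genes. The early sample without ethanol was thus the only one in each strain whose member median lay above that of all genes, by 0.80 in CECT10094 and by 1.16 in Temohaya-MI26.

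**Figure D1:**
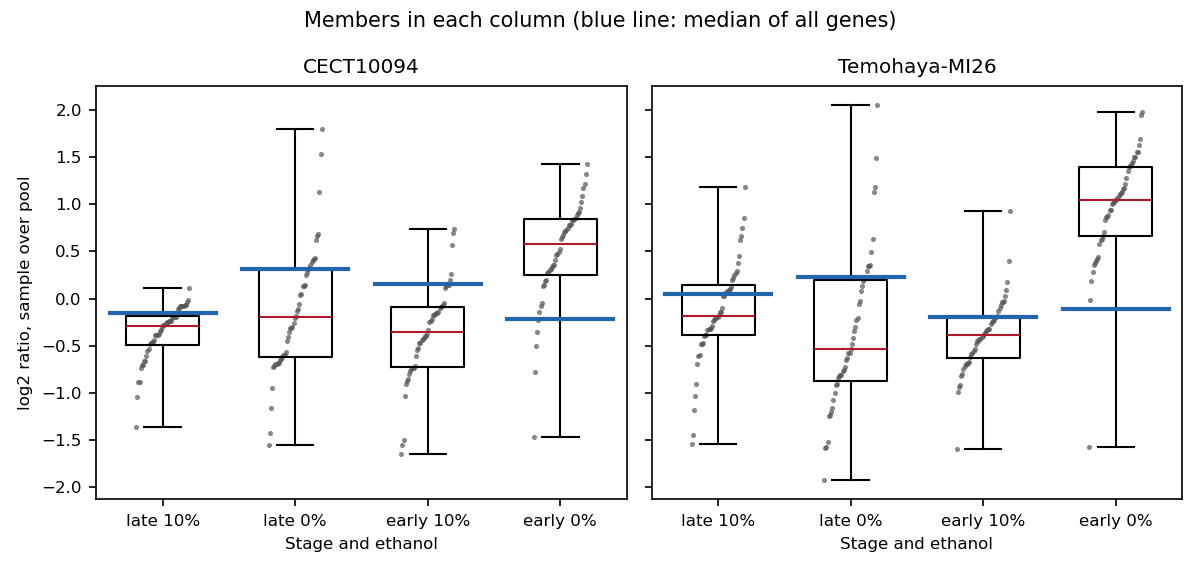
Levels of the members (log2 ratio of sample to RNA pool) in each strain by stage and ethanol, with a point per gene, boxes for the quartiles with the member median in red, whiskers to the lowest and highest member, and a blue line at the median of all genes. The member medians are highest in the early samples without ethanol, at 0.58 in CECT10094 and 1.05 in Temohaya-MI26.

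Gene by gene, the early sample without ethanol held the highest of the 4 levels of CECT10094 for 34 of 48 members, beside 13% of all genes. In Temohaya-MI26 it did so for 41 of 47 members measured in all 4 columns, beside 22.1% of all genes. When each column was centred on its median, an alternative added after the data were seen, the counts were 42 of 48 in CECT10094 and 41 of 47 in Temohaya-MI26, beside 25.3% and 28.0% of all genes.

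**Figure D2:**
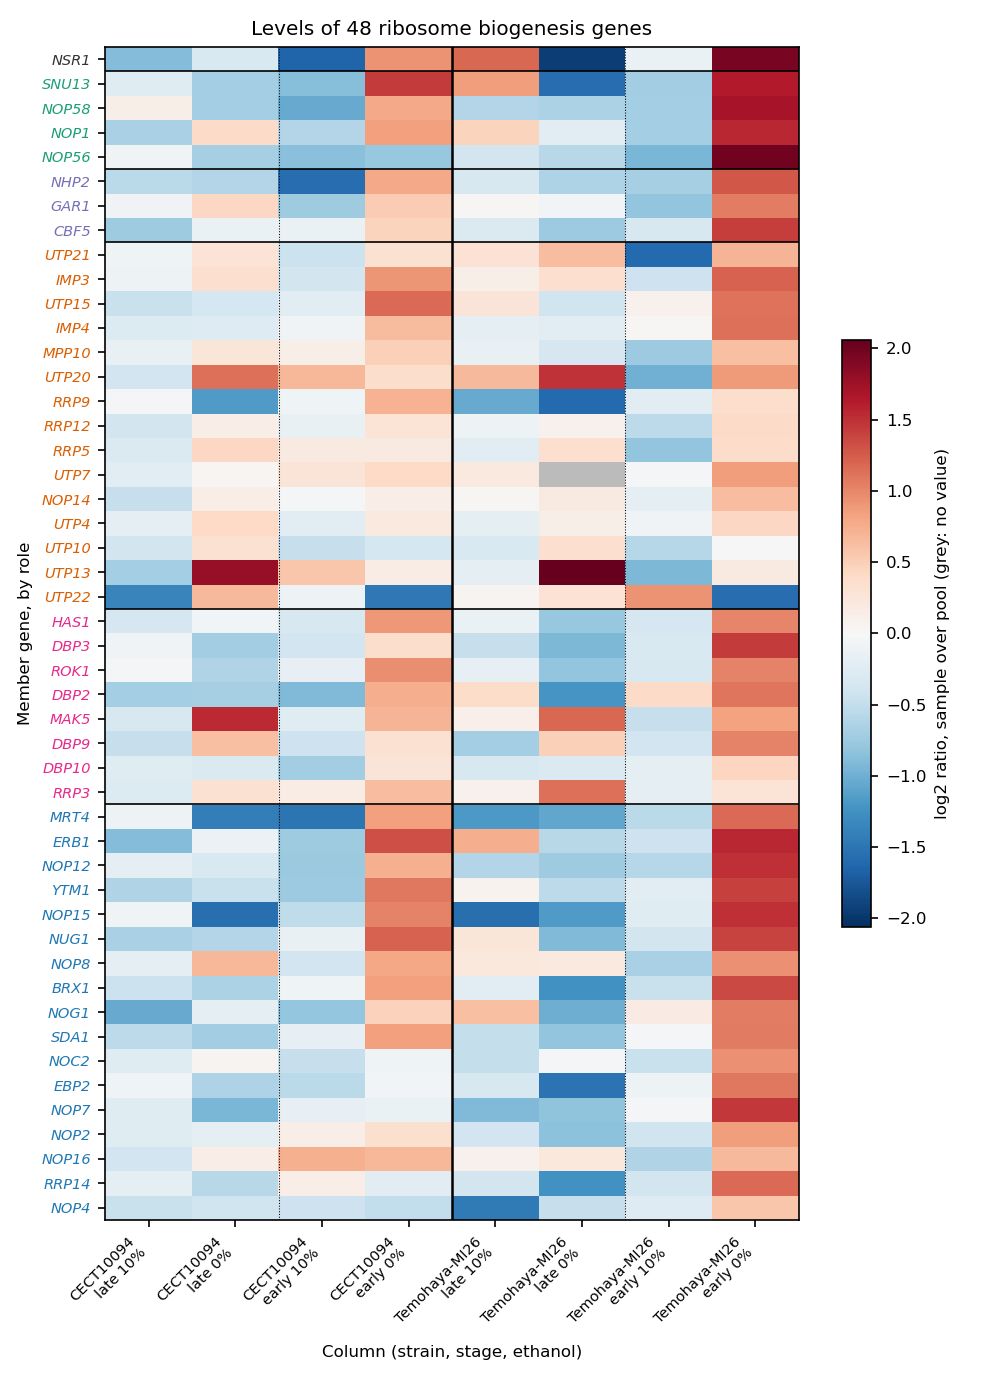
Level of each of the 48 members in each of the 8 columns, as a colour scale of log2 ratios to the RNA pool (red above and blue below it, grey without a value), with members grouped by role. The early columns without ethanol carry the highest level for 34 of 48 members in CECT10094 and 41 of 47 in Temohaya-MI26, while UTP22 shows the opposite order early in both strains.

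After 1 h, the genes were lower with ethanol than without it in both strains. The median ethanol difference of the members was -0.78 in CECT10094, where all genes had a median of 0.42, and -1.38 in Temohaya-MI26, where all genes had a median of -0.08. In each strain 47 of the 48 members lay below the median of all genes, and UTP22 was the exception in both. A single difference has no replicate behind it in these values, so a limit of 1.96 standard deviations to either side of the mean difference over all genes is used for it as a description. The study's methods combine this limit with a false discovery rate correction, which was not applied here because the combined values do not allow it. In CECT10094 this limit was -1.53 on the lower side, and 9 of 48 members lay beyond it, beside 3.53% of all genes, while no member lay beyond the upper limit of 2.29, which 2.18% of all genes passed. In Temohaya-MI26 the lower limit was -2.21, passed by 5 of 48 members and 3.08% of all genes, and the upper limit was 2.07, passed by 1 member and 2.74% of all genes. SNU13 (YEL026W) and NOP58 (YOR310C) were beyond the lower limit in both strains.

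To test the ethanol difference, a linear model was fitted in limma to all 8 columns with the strains as the only repeats, with the Benjamini-Hochberg adjustment over every gene tested. Its p measures how alike the strains were and not the variation between cultures. In what follows a gene rose or fell when its adjusted p was under 0.05. Early with ethanol 20 of the 48 members fell, beside 6.94% of all 5905 genes tested, and 1 member rose, beside 10.5%. The median fitted difference was -1.10 for the members and 0.17 for all genes, so the members lay 1.27 below all genes. All 21 calls were also made after centring the columns on their medians, when 29 members fell, and after quantile normalization, when 25 fell. Over all genes, 622 rose and 410 fell as deposited, 597 rose and 633 fell after centring, and 417 rose and 529 fell after quantile normalization. Leaving out 1 early column leaves 1 strain in this comparison. Without either of Temohaya-MI26 the median fitted difference was -0.79 for the members and 0.40 for all genes. Without either of CECT10094 it was -1.40 for the members and -0.08 for all genes.

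**Figure D3:**
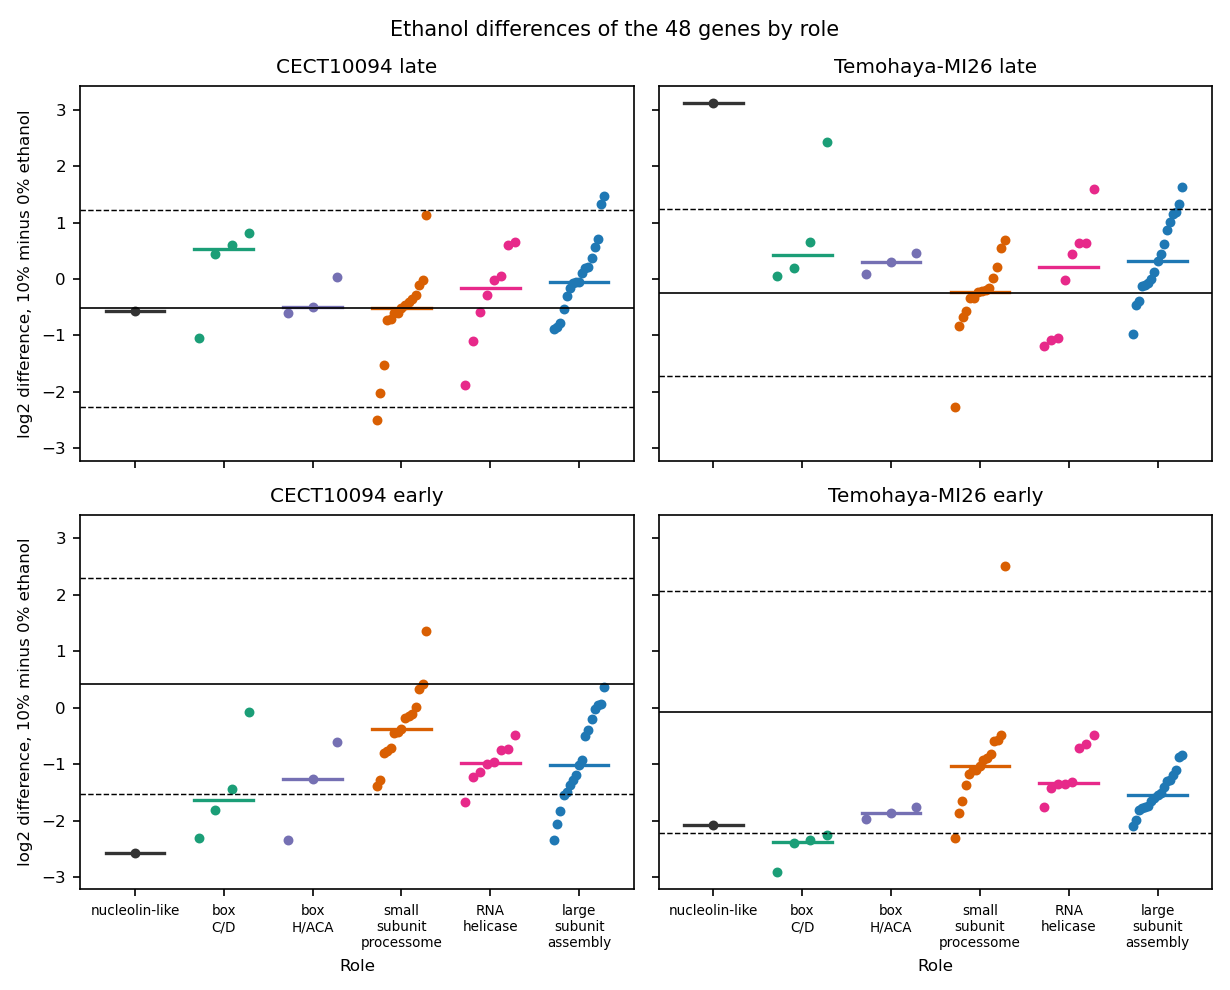
Ethanol difference (10% minus 0% ethanol, log2) of each member by role, in a panel per strain and stage, with role medians as short coloured lines, the median of all genes as a solid line and the limits of 1.96 standard deviations as dashed lines. Late, 31 of 48 members in CECT10094 and 35 of 47 in Temohaya-MI26 lie above the median of all genes, and early, 47 of 48 lie below it in each strain.

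NSR1 (YGR159C) encodes a nucleolin-like protein that binds precursor RNA and is needed for its normal processing. Early, its level was -1.65 with ethanol against 0.92 without it in CECT10094, and -0.14 with ethanol against 1.95 without it in Temohaya-MI26. Both levels with ethanol were below both levels without it. Its fitted difference was -2.33 (SE 0.65), with an adjusted p of 0.0319 in limma, and it did not pass with a robust prior.

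The box C/D core proteins were among the members with the largest early differences, and 3 of the 4 fell, beside 6.94% of all genes. SNU13, which recognises the kinked fold of box C/D RNAs and is also part of the spliceosome, stood at -0.87 with ethanol against 1.43 without it in CECT10094, and at -0.72 against 1.63 in Temohaya-MI26, a fitted difference of -2.33 (SE 0.45, limma adjusted p = 0.00589). NOP58, one of the paired scaffold proteins of the particle, stood at -1.03 with ethanol against 0.78 without it in CECT10094, and at -0.70 against 1.70 in Temohaya-MI26 (-2.10, SE 0.37, limma adjusted p = 0.00351). NOP1 (YDL014W), yeast fibrillarin and the methyltransferase of the particle, stood at -0.61 with ethanol against 0.84 without it in CECT10094, and at -0.70 against 1.56 in Temohaya-MI26 (-1.85, SE 0.44, limma adjusted p = 0.0161). In these 3 genes every level with ethanol was negative and every level without it was positive. They are the box C/D members that passed, so this separation follows in part from that choice, and NOP56 lacked it in CECT10094. The level of NOP56 (YLR197W), the scaffold partner of NOP58, was -0.85 with ethanol against -0.78 without it in CECT10094, and -0.94 against 1.98 in Temohaya-MI26, where its difference of -2.91 was the lowest of the members in Temohaya-MI26. Its fitted difference of -1.50 (SE 0.55) did not pass (limma adjusted p = 0.0851), and its ethanol difference did not pass the test between the strains over both stages.

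Of the box H/ACA core proteins, 2 of 3 fell, beside 6.94% of all genes. NHP2 (YDL208W), an RNA-binding protein related to SNU13, had the lowest adjusted p of all members (0.00231 in limma). Its level was -1.56 with ethanol against 0.78 without it in CECT10094, and -0.69 against 1.28 in Temohaya-MI26, and the fitted difference was -2.15 (SE 0.35). GAR1 (YHR089C) stood at -0.74 with ethanol against 0.53 without it in CECT10094, and at -0.82 against 1.05 in Temohaya-MI26 (-1.57, SE 0.36, limma adjusted p = 0.0137). CBF5 (YLR175W), the pseudouridine synthase itself, had an ethanol difference of -0.61 in CECT10094 against -1.75 in Temohaya-MI26, and did not pass (limma adjusted p = 0.0735). In all 3 genes the levels with ethanol lay below those without it in both strains.

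The small subunit processome members had smaller early differences as a group. Their median was -0.38 in CECT10094 and -1.03 in Temohaya-MI26. Of the 15 members 3 fell and 1 rose, beside 6.94% and 10.5% of all genes. IMP3 (YHR148W), which joins the U3 snoRNA to the precursor as part of the MPP10 complex, stood at -0.38 with ethanol against 0.91 without it in CECT10094, and at -0.43 against 1.22 in Temohaya-MI26 (-1.47, SE 0.35, limma adjusted p = 0.0152). UTP21 (YLR409C) stood at -0.44 against 0.32 in CECT10094 and at -1.60 with ethanol against 0.71 without it in Temohaya-MI26 (-1.53, SE 0.41, limma adjusted p = 0.0269). UTP15 (YMR093W), of the subcomplex that binds the precursor first, also fell, with differences of -1.39 in CECT10094 and -1.03 in Temohaya-MI26.

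UTP22 (YGR090W) went the other way. It belongs to a processome subcomplex with casein kinase II and RRP7, and also to a complex with IFH1, an activator of ribosomal protein genes. Its early level was -0.11 with ethanol against -1.47 without it in CECT10094, and 0.93 against -1.57 in Temohaya-MI26. Both levels with ethanol were above both levels without it, and the fitted difference was 1.94 (SE 0.47, limma adjusted p = 0.0163). UTP22 was named for the size of its early difference, so this separation follows in part from that choice. UTP13 (YLR222C), a WD-repeat protein of the same subcomplex as UTP21, had the smallest mean early difference of the processome, and its sign differed between strains. It stood at 0.56 with ethanol against 0.14 without it in CECT10094, and at -0.92 against 0.18 in Temohaya-MI26.

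Among the 8 RNA helicases, 3 fell early, beside 6.94% of all genes. The median difference of the 8 was -0.97 in CECT10094 and -1.33 in Temohaya-MI26. HAS1 (YMR290C), which acts in both subunits, stood at -0.34 with ethanol against 0.89 without it in CECT10094, and at -0.35 against 1.00 in Temohaya-MI26. ROK1 (YGL171W), of the small subunit pathway, stood at -0.17 with ethanol against 0.96 without it in CECT10094, and at -0.33 against 1.02 in Temohaya-MI26. DBP3 (YGL078C), of the large subunit pathway, stood at -0.39 against 0.36 in CECT10094 and at -0.32 with ethanol against 1.44 without it in Temohaya-MI26. In all 3 genes the levels with ethanol were negative and those without it were positive. These genes were named for the largest early differences of their role, so this separation follows in part from that choice. RRP3 (YHR065C), a small subunit helicase with the smallest difference of this role, stood at 0.15 with ethanol against 0.64 without it in CECT10094 and at -0.19 against 0.28 in Temohaya-MI26, and did not pass.

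Of the 17 large subunit assembly factors, 8 fell early and none rose, beside 6.94% and 10.5% of all genes. The median difference of the 17 was -1.02 in CECT10094 and -1.54 in Temohaya-MI26. MRT4 (YKL009W), a stand-in for the stalk protein P0 on the maturing subunit, stood at -1.50 with ethanol against 0.84 without it in CECT10094, and at -0.56 against 1.17 in Temohaya-MI26 (-2.04, SE 0.41, limma adjusted p = 0.00724). ERB1 (YMR049C) stood at -0.74 with ethanol against 1.32 without it in CECT10094, and at -0.43 against 1.55 in Temohaya-MI26 (-2.02, SE 0.46, limma adjusted p = 0.0131). NOP12 (YOL041C), an RNA-binding protein of early large subunit particles, stood at -0.77 with ethanol against 0.72 without it in CECT10094 and at -0.58 against 1.50 in Temohaya-MI26 (-1.79, SE 0.35, limma adjusted p = 0.00637). In these genes the levels with and without ethanol did not overlap. They were named for the largest early differences of their role, so this separation follows in part from that choice.

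ERB1 works in a trimer with YTM1 (YOR272W) and NOP7 (YGR103W). YTM1 fell (-1.74, SE 0.36, limma adjusted p = 0.00825) with -1.84 in CECT10094 and -1.64 in Temohaya-MI26. NOP7, at -0.02 in CECT10094 and -1.50 in Temohaya-MI26, did not pass. The other large subunit factors that fell were NUG1 (YER006W), a GTPase of late nuclear steps, NOP8 (YOL144W), NOP15 (YNL110C) and BRX1 (YOL077C), with fitted differences of -1.57, -1.40, -1.65 and -1.37. NOP4 (YPL043W) had the smallest difference of this role, at -0.43 with ethanol against -0.50 without it in CECT10094 and at -0.27 against 0.57 in Temohaya-MI26.

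**Figure D4:**
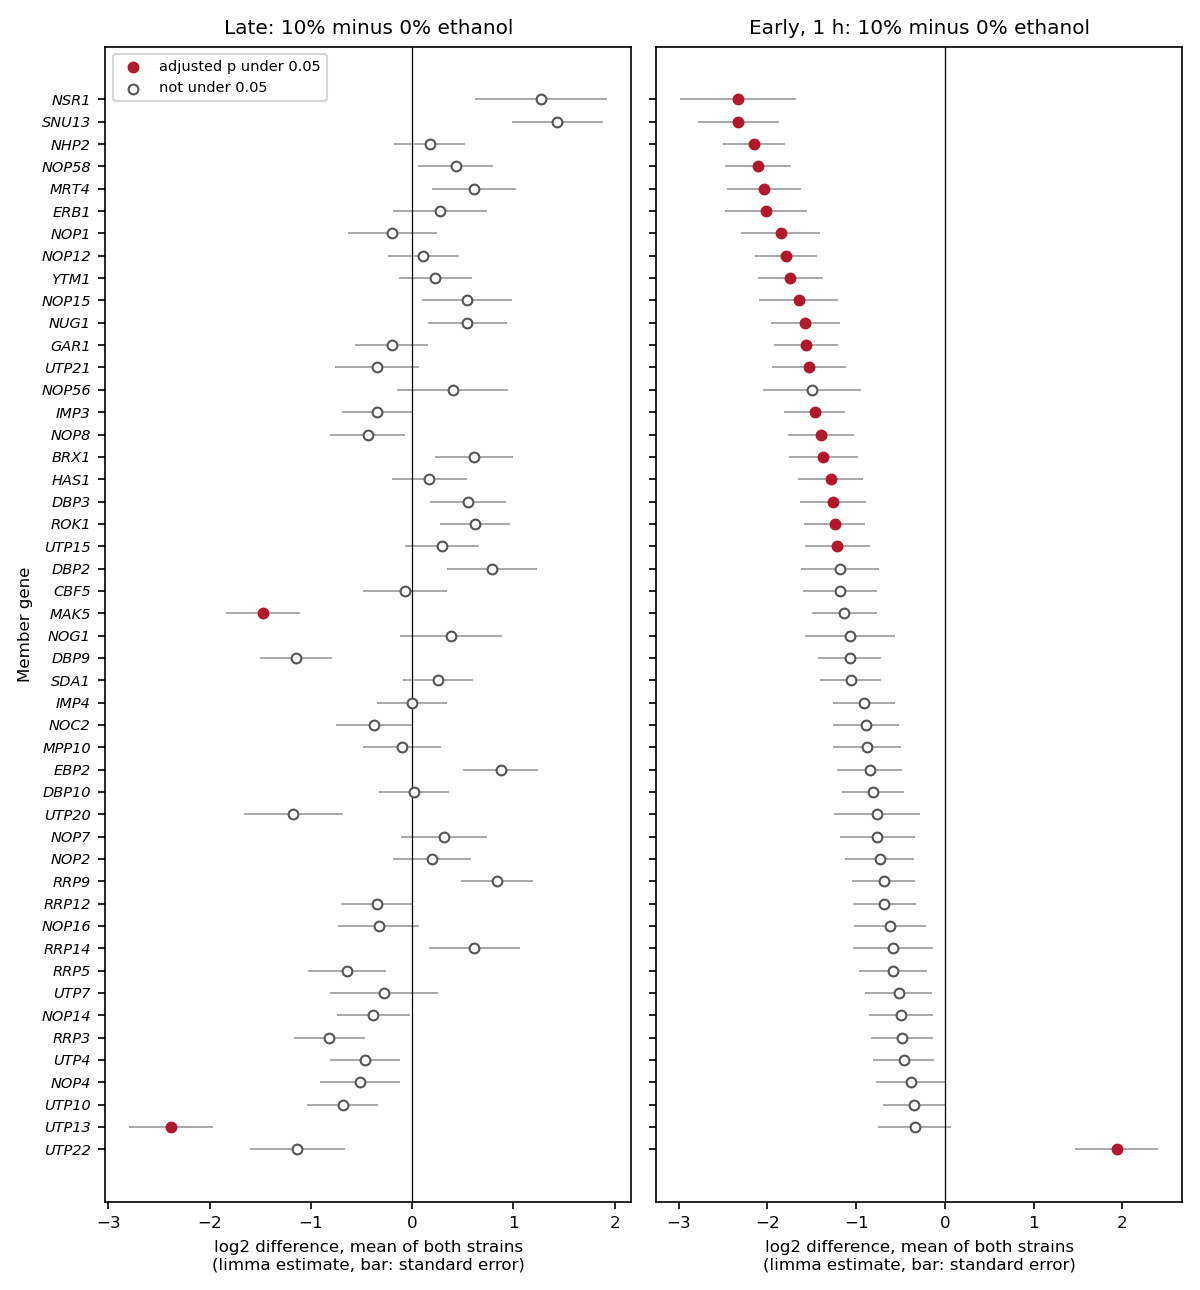
Fitted ethanol difference (10% minus 0% ethanol, log2) of each member late and early, as the mean of both strains (UTP7 late is from CECT10094 alone), with bars for the standard error of the limma fit and filled red points for an adjusted p under 0.05. Late, UTP13 and MAK5 fell, while early 20 members fell and UTP22 rose.

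Late, the ethanol differences of the members no longer lay below those of all genes as a group. The median level of the members was still below that of all genes in every late column. Their median ethanol difference was -0.28 in CECT10094, beside -0.51 for all genes, and 0.09 in Temohaya-MI26, beside -0.25 for all genes, so that they lay 0.228 and 0.336 above all genes. After quantile normalization they lay 0.0673 above all genes in CECT10094 and 0.251 above in Temohaya-MI26. The member median of CECT10094 is below 0 as deposited. In CECT10094 31 of 48 members lay above the median of all genes, and in Temohaya-MI26 35 of 47. Beyond the upper limits lay 2 of 48 members in CECT10094 (limit 1.23, passed by 2.76% of all genes) and 5 of 47 in Temohaya-MI26 (limit 1.25, passed by 3.04%). Beyond the lower limits lay 1 member in CECT10094 (limit -2.27, passed by 2.85%) and 1 in Temohaya-MI26 (limit -1.71, passed by 2.51%), and both times it was UTP13.

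In CECT10094 the members beyond the upper limit were NOP15, an RNA-binding protein of large subunit precursors, and MRT4. NOP15 stood at -0.08 with ethanol against -1.55 without it in CECT10094 and at -1.55 against -1.16 in Temohaya-MI26, and MRT4 at -0.10 against -1.42 in CECT10094 and at -1.18 against -1.07 in Temohaya-MI26. In Temohaya-MI26 they were NSR1, SNU13, NOG1, DBP2 and ERB1, with differences of 3.12, 2.43, 1.62, 1.59 and 1.32, where CECT10094 had -0.57, 0.44, -0.86, -0.01 and -0.77. A strain difference within one stage could not be tested with 1 value per condition.

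Under limma 2 of the 48 members fell late, beside 7.01% of all 5893 genes, and none rose, beside 0.815%. At an unadjusted p under 0.05, 6 members were lower and 3 higher, without a share of all genes to set beside them. The late value of UTP7 in this fit came from CECT10094 alone. Leaving out any 1 early column gave 3 members that fell and 2 that rose of 47 tested. Of all 5474 genes in that fit, 653 fell and 101 rose. Leaving out 1 late column leaves 1 strain in this comparison, so its calls are not given. UTP13 stood at -0.70 with ethanol against 1.80 without it in CECT10094, and at -0.20 against 2.06 in Temohaya-MI26 (-2.38, SE 0.41, limma adjusted p = 0.0147). MAK5 (YBR142W), a helicase of the large subunit pathway, stood at -0.33 with ethanol against 1.54 without it in CECT10094, and at 0.10 against 1.18 in Temohaya-MI26 (-1.48, SE 0.37, limma adjusted p = 0.0355). Neither fell after quantile normalization, when no member rose either, and after centring 1 member fell and 2 rose. Over all genes, 48 rose and 413 fell as deposited, 126 rose and 250 fell after centring, and 37 rose and 29 fell after quantile normalization. MAK5 did not pass with a trended prior. MAK5 is the only member on chromosome I, chromosome III or the right arm of chromosome II. In the late columns without ethanol the ORFs of these regions had a median 0.46 above all genes in CECT10094 and 0.69 above in Temohaya-MI26, and their late ethanol differences had medians 0.34 and 0.43 below, whose part in the value of MAK5 was not tested.

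UTP20 (YBL004W), a large scaffold protein of the processome, had the third lowest late mean, at -0.39 with ethanol against 1.13 without it in CECT10094 and at 0.66 against 1.49 in Temohaya-MI26, and did not pass. SNU13 had the highest late mean, at -0.25 with ethanol against -0.69 without it in CECT10094 and at 0.86 against -1.57 in Temohaya-MI26 (1.43, SE 0.45, limma adjusted p = 0.0756). NSR1 came next, at -0.89 with ethanol against -0.31 without it in CECT10094 and at 1.18 against -1.93 in Temohaya-MI26, so that its levels with and without ethanol overlapped between strains. EBP2 (YKL172W), a large subunit factor whose human counterpart is known as a partner of an Epstein-Barr virus protein, stood at -0.08 with ethanol against -0.64 without it in CECT10094 and at -0.33 against -1.52 in Temohaya-MI26.

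The difference between the stages was tested in the same model. The ethanol difference was higher late than early in 15 of the 48 members, beside 4.38% of all 5869 genes, and lower in 2, beside 14.6%. Over all genes, 257 were higher and 857 lower as deposited, 515 and 527 after centring, and 403 and 302 after quantile normalization, so these background shares depend on the scaling. The median of late minus early was 1.19 for the members and -0.58 for all genes. The highest were SNU13 at 3.76 (SE 0.64, limma adjusted p = 0.00446) and NSR1 at 3.60 (SE 0.92, limma adjusted p = 0.0225), and the 2 lower ones were UTP22 at -3.07 (SE 0.66) and UTP13 at -2.04 (SE 0.58). Of the 17 calls 14 were also made both after centring and after quantile normalization, and DBP2, NOP15 and UTP13 were lost under quantile normalization. Without either late column of Temohaya-MI26, the late difference came from CECT10094 alone. The median was then 0.97 for the members and -0.64 for all genes. By role, the 15 were NSR1, 2 of 4 box C/D members, 1 of 3 box H/ACA members, 3 of 8 helicases and 8 of 17 large subunit factors, and the processome held both lower members and no higher one among 15.

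Without ethanol, the level late minus early was compared with the strains as repeats. This comparison shares the early columns without ethanol with the early ethanol difference, so its values are set beside the earlier ones and are no separate evidence. Of the 48 members 23 were lower late than early, beside 4.63% of all 5831 genes, and 2 were higher, beside 20.8%. Over all genes the split was 1213 higher and 270 lower as deposited, 729 and 566 after centring, and 18 and 45 after quantile normalization. The lower members numbered 28 after centring and 4 after quantile normalization, and these 4 were SNU13, NUG1, BRX1 and YTM1. Leaving out 1 column at 0% ethanol leaves 1 strain in this comparison. Without either of Temohaya-MI26 the median was -0.56 for the members and 0.55 for all genes. Without either of CECT10094 it was -1.77 for the members and 0.42 for all genes. SNU13 was at -0.69 late and 1.43 early in CECT10094 and at -1.57 late and 1.63 early in Temohaya-MI26 (-2.67, SE 0.41, limma adjusted p = 0.00481). NOP15 was at -1.55 late and 1.02 early in CECT10094 and at -1.16 late and 1.50 early in Temohaya-MI26 (-2.62, SE 0.44, limma adjusted p = 0.0065). UTP22 was at 0.66 late and -1.47 early in CECT10094 and at 0.30 late and -1.57 early in Temohaya-MI26 (2.00, SE 0.34, limma adjusted p = 0.00707), and UTP13 was the other higher member (1.76, SE 0.47). Neither passed after quantile normalization or without any 1 of the 4 columns at 0% ethanol.

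With ethanol, no member differed between late and early by limma, beside 2.03% of all 5860 genes. At an unadjusted p under 0.05, 2 members were higher and 1 lower, without a share of all genes to set beside them. The median of late minus early at 10% ethanol was 0.10 for the members and -0.05 for all genes. The members at an unadjusted p under 0.05 were UTP21 at 1.13, SNU13 at 1.09 and UTP22 at -1.07, with standard errors of 0.42, 0.41 and 0.34. Leaving out a 10% ethanol column leaves 1 strain in this comparison. Without either of CECT10094 the median was 0.21 for the members and 0.22 for all genes. Without either of Temohaya-MI26 it was -0.03 for the members and -0.30 for all genes.

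Between the strains, compared with the 4 conditions as the only repeats, no member differed by limma, beside 0.0832% of all genes. None did at an unadjusted p under 0.05 either. NSR1 had the lowest strain gap, -0.75 on average (CECT10094 minus Temohaya-MI26), followed by NOP56 at -0.62 and NOG1 (YPL093W), a GTPase bound to large subunit precursors, at -0.60. The highest gap was that of RRP9 (YPR137W), a U3-specific protein, at 0.49, then MPP10 (YJR002W) at 0.33 and NOP16 (YER002W) at 0.21. In RRP9 the levels of CECT10094 were -0.03 late and -0.08 early with ethanol and -1.16 late and 0.71 early without it. Temohaya-MI26 had -1.04 late and -0.23 early with ethanol and -1.59 late and 0.36 early without it, so CECT10094 was higher in all 4 conditions. RRP9 was named for the highest gap of the members, so this pattern follows in part from that choice. Its gap did not pass (limma adjusted p = 0.949).

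Relative to the median of all genes, the early ethanol difference of the members lay at -1.20 in CECT10094 and at -1.30 in Temohaya-MI26. The ethanol difference was also tested between the strains, with the stages as the only repeats and 1 residual degree of freedom. Over both stages this test called no member by limma, beside 0% of all 5359 genes. At an unadjusted p under 0.05 it had 1 member higher and 4 lower, without a share of all genes to set beside them. The lowest was NSR1 at -2.09 (SE 0.65, limma adjusted p = 0.54). The ethanol difference of NSR1 was -0.57 late and -2.57 early in CECT10094 and 3.12 late and -2.08 early in Temohaya-MI26. In simulated data with a spread set in advance, this test found 36% of genes given a log2 gap of 2. Gaps of that size were thus often missed there, and the share in the real data is not known.

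Other genes of the pathway were taken from lists of biogenesis factors outside the 48. Early with ethanol 8 of 48 other small subunit factors fell (median fitted difference -0.60) and 15 of 51 other large subunit factors fell (-0.87), and none of either list rose. NIP7 (YPL211W), which acts in large subunit maturation, had -2.07 in CECT10094 and -2.74 in Temohaya-MI26 (-2.40, SE 0.38, limma adjusted p = 0.00204), and UTP23 (YOR004W), a small subunit factor, had -2.07 in CECT10094 and -1.35 in Temohaya-MI26 (-1.71, SE 0.36, limma adjusted p = 0.00894). Of 8 RNA polymerase I genes, which are subunits and the initiation factor RRN3, 3 subunits fell, RPA43, RPA34 and RPA49 (-1.40, -1.32 and -1.32), with a list median of -0.73. None of 13 genes for exosome subunits and cofactors fell, and RRP43 (YCR035C) rose at 2.05 (SE 0.37, limma adjusted p = 0.00387). RRP43 lies on chromosome III, one of the regions named for MAK5, whose early ethanol differences had medians 0.04 below all genes in CECT10094 and 0.07 below in Temohaya-MI26. These lists stood beside 6.94% of all genes that fell and 10.5% that rose.

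**Figure D5:**
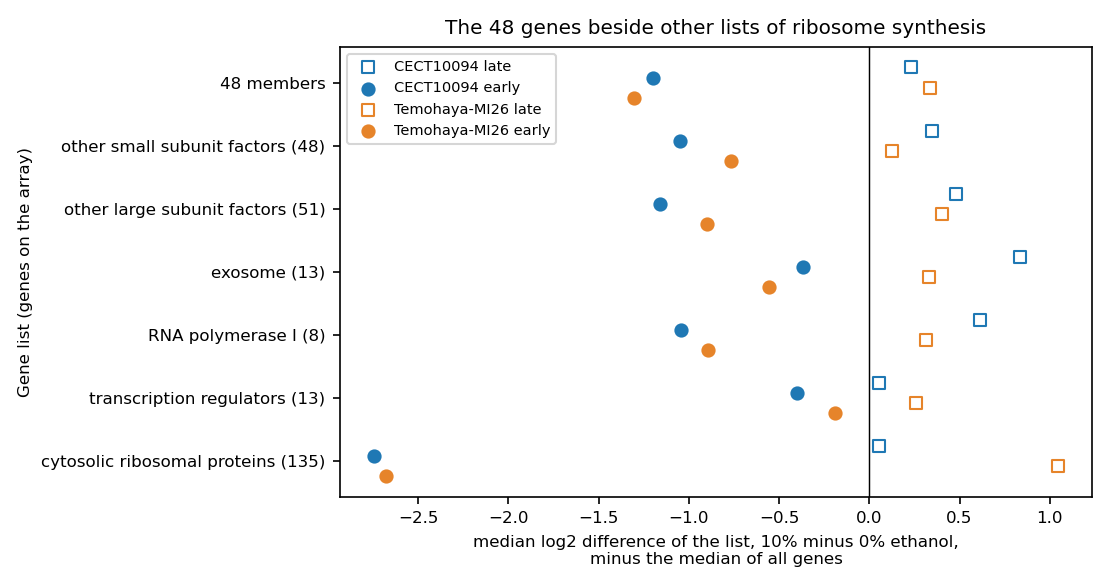
Median ethanol difference (10% minus 0% ethanol, log2) of the 48 members and of each companion list, less the median of all genes, in each strain, with open squares for late and filled circles for early samples. The members lie at 0.228 late and -1.20 early in CECT10094 and at 0.336 late and -1.30 early in Temohaya-MI26, and the cytosolic ribosomal proteins have the lowest early medians in both strains.

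Cytosolic ribosomal proteins, the products that these factors assemble, had a lower early median than the members. Late, 1 of 130 rose and none fell by limma, beside 0.815% and 7.01% of all genes, with a median fitted difference of 0.15. The late median was -0.46 in CECT10094, with 1 gene of 130 beyond each limit, beside 2.76% of all genes beyond the upper and 2.85% beyond the lower. In Temohaya-MI26 it was 0.80, with 20 of 127 genes beyond the upper limit and none beyond the lower one. Of all genes there, 3.04% lay beyond the upper limit and 2.51% beyond the lower. Of 135 ribosomal protein genes on the array, 117 could be tested early. Early, 95 of 117 fell and 1 rose, beside 6.94% and 10.5% of all genes, with a median of -2.71, and near-identical gene pairs among them cannot be told apart on spotted arrays. The late minus early ethanol difference was higher in 84 of 117 ribosomal protein genes and lower in 1, in 12 of 51 other large subunit factors, and in 5 of 48 other small subunit factors with 1 lower, beside 4.38% of all genes higher and 14.6% lower as deposited.

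Of the 13 transcription regulators of the regulon measured, 1 passed early, beside 6.94% of all genes that fell and 10.5% that rose. TOR1 (YJR066W), a kinase of the growth-controlling TOR complex, rose with 1.92 in CECT10094 and 2.02 in Temohaya-MI26 (1.97, SE 0.34, limma adjusted p = 0.00334), and its late differences were -0.76 in CECT10094 and -0.84 in Temohaya-MI26. TOR2, the paralogous kinase, had a fitted early difference of 0.46 and SCH9, a kinase downstream, -0.24. The repressors STB3, DOT6, TOD6 and CRF1 had fitted early differences of 0.85, 0.35, -0.40 and -0.28. The activators SFP1, IFH1, FHL1, RAP1 and HMO1 had -0.42, -0.12, -0.63, -0.54 and 0.05, and RIM15, a kinase of starvation entry, had -0.53. None of the 13 passed late, beside 7.01% of all genes that fell and 0.815% that rose.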

How the data were processed

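Spotted two-colour arrays measured 24 slides, 3 biological replicates in each of 8 conditions. The authors used GenePix Pro 6.0 for a global background subtraction, formed log2 ratios of the sample (Cy5) to a common RNA pool (Cy3), applied the ratio-based normalization of Acuity 4.0, kept spots with at least 2 replicates and deposited the log2 median of each condition. Dyes were not swapped. A deposited table of the authors' own log2 differences, 10% minus 0% ethanol in 4 columns, was not used. The error behind a single value is unknown, and precision is limited by how many arrays were combined.

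The deposited columns were used without further normalization. Differences were taken per strain and stage, and limits lay 1.96 standard deviations to either side of the mean over all genes. limma 3.58.1 in R 4.3.3 used lmFit and eBayes on all 8 columns, for the ethanol comparisons with each strain and stage as a block and an ethanol term per stage, and likewise for stage and strain. Genes needed at least 1 residual degree of freedom. The ethanol fit had 2, and its prior had 9.17 degrees of freedom and a standard deviation of 0.377. Summaries used Python 3.11.15, pandas 2.3.3 and numpy 2.4.6. Names came from the R64 reference table, which matched 5653 of 6152 ORFs, and all 133 symbols of the companion lists matched. No sequence was printed because none was at hand, and a planned promoter motif search was not run.

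The fits were tested on simulated data for 5359 genes, 200 of them changed. For ethanol early, limma found 0% of genes given a log2 change of 1, 95% of those given 2 and 100% of those given 3. For the ethanol difference late minus early the shares were 0%, 35% and 92%. The simulated spread was set in advance, and fewer genes were changed than the early fit called. These shares therefore need not hold in the real data.

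All 48 members were counted. Levels, ethanol differences or strain gaps, not always in every column, were given for members chosen by rule. These were NSR1, the core snoRNP proteins, the members with the 3 largest and the smallest early difference in each other role, the 3 highest and lowest late differences and the 3 widest strain gaps either way. Of each companion list up to 4 members past the threshold were named, with every transcription regulator. The members, lists and rules were chosen with earlier results of these data known. The alternatives were a median and MAD limit (factor 1.4826), 2.58 standard deviations, a fixed log2 difference of 1, genes present in all columns, quantile normalization, centred columns, ORFs of the shifted regions left out, robust and trended priors, an adjusted p under 0.1, the 4 columns of a stage, and each column left out.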

Additional observations from a re-analysis of the deposited data

Results flagged for a closer look

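The ethanol difference (10% minus 0% ethanol) differed between the late and the early stage, by the limma test of the stage contrast, in 17 members. It was higher late in 15 and lower late in 2, beside 4.38% of all genes higher and 14.6% lower. Over all genes this is 257 higher and 857 lower as deposited, against 515 and 527 after centring the columns and 403 and 302 after quantile normalization. On the log2 scale, late minus early was 3.76 for SNU13, 3.60 for NSR1, 2.65 for MRT4, 2.53 for NOP58, 2.33 for NHP2, 2.29 for ERB1, 2.19 for NOP15, 2.12 for NUG1, 1.98 for BRX1, 1.97 for DBP2, 1.97 for YTM1, 1.90 for NOP12, 1.86 for ROK1, 1.81 for DBP3 and 1.72 for EBP2. It was -3.07 for UTP22 and -2.04 for UTP13. The late samples at 10% ethanol were taken at 28 h (CECT10094) and 40 h (Temohaya-MI26), and those at 0% ethanol at 10 h, so ethanol and hours of culture cannot be told apart in these values.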

How the results depend on the processing

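With 1 value per condition no difference of a single strain has a replicate check. In the ethanol and stage comparisons limma measures only the likeness of the strains. In the tests between strains it measures only the likeness of the conditions or of the stages. The log2 medians carry no signal over background, so dim spots could not be set apart. Early, a median and MAD limit gave 19 lower members in CECT10094 and 17 in Temohaya-MI26, 2.58 standard deviations gave 4 and 1, and a fixed log2 difference of 1 gave 20 and 36, where the main limits gave 9 and 5. Late, the higher members numbered 0 at 2.58 standard deviations and 1 after quantile normalization in CECT10094 (2 as reported). In Temohaya-MI26 they numbered 8 with MAD, 2 at 2.58 standard deviations and 8 at a log2 difference of 1 (5 as reported). The shares of all genes beyond these alternative limits are not given here. The early and late counts therefore show only how they depend on the limit. Quantile normalization moved the late distance of the members above all genes to 0.0673 in CECT10094 and 0.251 in Temohaya-MI26. In limma, the 2 late ethanol calls became 4 at an adjusted p under 0.1, 0 after quantile normalization, 1 with a trended prior and 5 with the 4 columns of the stage. Over all genes, 98 rose and 759 fell late at an adjusted p under 0.1. With a trended prior 48 rose and 293 fell, and with the 4 columns of the stage 101 rose and 653 fell. The 15 members with a higher late ethanol difference became 27 after centring, and the 23 lower late without ethanol became 4 after quantile normalization. The strain test of the ethanol difference called 1 member after quantile normalization and 1 with a trended prior. Over all 5359 genes this strain test called 9 higher and 15 lower after quantile normalization, and 7 and 6 with a trended prior. The cause of these moves was not tested. Leaving out 1 column removed its strain from the ethanol or stage comparison that uses it, and a fit then left with 1 strain is no check on both. Where both strains remained, 27 members fell early, beside 512 of all 5814 genes. Late, 3 fell and 2 rose, beside 653 and 101 of 5474. Without ethanol 28 were lower late, beside 524 of 5542, and with ethanol none was called between stages. Leaving out 1 column gave 0 members called between strains. The ethanol test between strains could not be fitted this way. For single members and the smaller counts, 698 of the values kept their direction and side of the threshold, 187 passed the threshold no longer, 7 counts moved and none reversed. No paired analysis was possible because the replicate slides had been combined into 1 column per condition.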
